A study of Mus musculus with 2 samples.

Results

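The genes described here encode the autophagy machinery and the Vps-named proteins of vacuolar (in mammals, endosomal and lysosomal) sorting. They were chosen by name: the Atg, Wipi, Ulk, Gabarap, Map1lc3, Becn and Vps genes as the array spells them, together with Sqstm1 and Rb1cc1. The array named 57 such genes through 125 probes. A gene was counted when a probe was well above background on at least 1 array, which held for 55 of the 57, out of 15609 named genes counted by the same rule across the series. Levels were measured in granulocytes and in monocytes, each sorted from the bone marrow of male wild-type C57BL/6 mice, with 1 one-colour Agilent array per cell type and 2 arrays in all. The sources used here give neither the surface markers of the sorts, nor the age of the mice, nor how many were used. No array repeated either cell type, so the spread between samples is unknown and untested, and precision is limited by having a single array of each.

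Autophagy encloses cytoplasm in a double membrane, the autophagosome, and delivers it to the lysosome. The ULK kinase complex starts the process, a lipid kinase complex that holds beclin marks the membrane, WIPI proteins read that mark, and a pair of ubiquitin-like conjugation systems attach Atg8 family proteins (LC3 and GABARAP) to the growing membrane. Vps proteins were first found in yeast mutants that missorted vacuolar enzymes, and in mammals they form the retromer, the ESCRT complexes, the HOPS and CORVET tethers and the GARP tether. In neutrophils autophagy is known for its part in differentiation and granule formation, and in monocytes for supporting survival during the change into macrophages.

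Levels are given as log2 of the background-corrected signal minus the 75th percentile of the same array, so that 0 is the signal at that percentile. Differences are granulocyte minus monocyte on this log2 scale. Levels of different genes come from different probes and are not set against each other. The median difference of all named genes was 0.45, not 0, and the values below are read against it. Without any scaling every difference would be lower by 0.87, and 24 of the 55 genes changed sign under at least 1 of the 11 alternative ways of processing, while 31 kept theirs under all of them. Repeated spots of a probe measure only the noise within an array, and their SD was 0.11 for granulocytes and 0.09 for monocytes (median over 245 probes with at least 3 spots).

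Signal was well above background for 63.9% of probes in granulocytes and 68.2% in monocytes. Of the markers used to check the labels, all 12 of the granulocyte list were higher in granulocytes by 2-fold or more, and 9 of 10 of the monocyte list were higher in monocytes by that size, the exception being Cd14 (-0.54). The count for the granulocyte list depended on scaling. Its smallest difference was 1.06 (S100a9), which would lie within 2-fold without scaling. The granulocyte list was bright on both arrays, with a log2 summed level of 12.08 in granulocytes and 10.04 in monocytes, and the monocyte list stood at 4.74 in granulocytes and 9.19 in monocytes. Markers of other cell types also gave signal. All 4 erythroid markers were higher in granulocytes, with a log2 summed level of 8.40 in granulocytes and 6.57 in monocytes, as were the 4 megakaryocyte markers (1.70 and 0.06). Of 5 T and NK cell markers 4 were higher in monocytes, with a log2 summed level of 0.85 in granulocytes and 4.0 in monocytes, and all 3 plasmacytoid dendritic cell markers were too (2.33 and 4.74), with Siglech not well above background in granulocytes. All 4 B-cell markers were above background on both arrays, with a log2 summed level of 2.28 in granulocytes and 2.25 in monocytes, as were the 4 eosinophil markers (3.24 and 2.56) and the 4 basophil and mast cell markers (-0.24 and -1.46). Whether such cells were present, and what part they had in the differences below, was not tested. Fewer cells of a type and less RNA per cell cannot be told apart here.

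Most of the genes were higher in granulocytes than in monocytes, autophagy genes more so than Vps genes. Above 0 lay 48 of the 55 genes (87.3%), against 59.6% of all named genes, but only 24 without scaling, 32 with spike-in controls and 42 with quantile normalisation. A gene is said to pass 2-fold toward a cell type when its level there was higher by 2-fold or more. Toward granulocytes 22 genes (40%) passed, against 29.1% of all named genes, and toward monocytes 3 (5.45%), against 20.9% of all named genes. The other 30 lay within 2-fold. At 4-fold the counts were 7 in granulocytes (8.54% of all named genes passed) and 1 in monocytes (10.4% passed). The median difference was 0.70, beside 0.45 for all named genes, and 35 of the 55 lay above 0.45. After normexp background correction the excess over all genes was 0.06 in place of 0.24, and 30 of the 55 lay above the median of all genes. All 55 were measured on both arrays, and among the 14182 genes measured on both, 29.1% and 20.2% passed 2-fold toward granulocytes and monocytes. The split depended on scaling: 9 genes in granulocytes and 6 in monocytes without scaling, against 9.88% and 35.3% of all genes, and 15 and 5 with spike-in controls, against 15.0% and 28.7% of all genes.

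The 24 autophagy genes had a median difference of 1.28, with 14 past 2-fold toward granulocytes and 2 toward monocytes. The 31 Vps genes had a median of 0.46, with 8 and 1. The Vps median was thus close to the 0.45 of all named genes. Above that value lay 16 of the 31 Vps genes and 19 of the 24 autophagy genes. In the plot of shares past 2-fold, the autophagy genes stood at 58.3% toward granulocytes and 8.33% toward monocytes, and the Vps genes at 25.8% and 3.23%. All named genes stood at 29.1% and 20.9%, so toward granulocytes the autophagy genes exceeded that share and the Vps genes did not. With 1 array per cell type, the contrast between these sets was not tested.

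**Figure D1:**
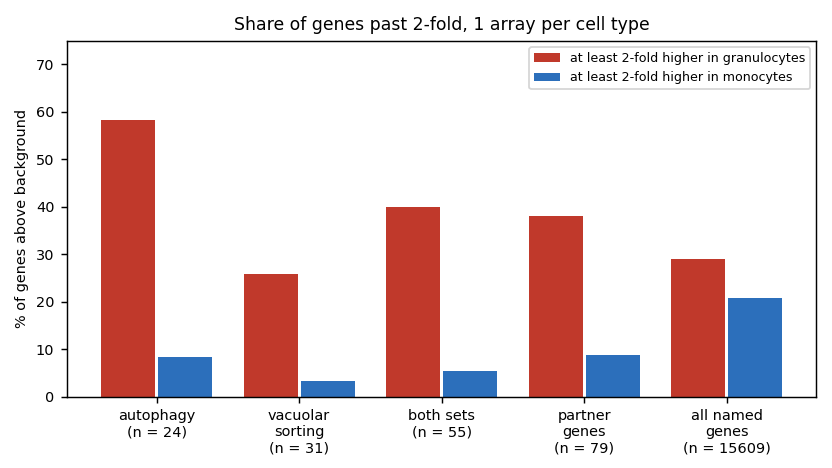
Share of genes above background (y axis, in %) past 2-fold toward granulocytes (red, left bar) or monocytes (blue, right bar), for each set on the x axis with its number of genes. Autophagy genes stand at 58.3% and 8.33%, Vps genes at 25.8% and 3.23%, and all named genes at 29.1% and 20.9%.

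The probes behind the largest differences are printed because every value of a gene rests on the 60 bases that its probe carries. They are the 4 genes each way with the largest difference, in lower case throughout since no stretch of them is singled out. Positions come from the array files and refer to build mm8. The Wipi1 probe lies at chr11:109389916-109389975 on the minus strand, the Ulk1 probe at chr5:111024798-111024857 on the minus strand and the Atg7 probe at chr6:114742586-114742645 on the plus strand. The Atg16l2 probe spans 231 bases at chr7:101164489-101164719 on the minus strand, more than its 60 bases. Higher in monocytes, the Gabarapl1 probe lies at chr6:129507929-129507988 and the Vps8 probe at chr16:21490700-21490759, both on the plus strand. The probes for Atg10 (chr13:91411572-91496810) and Vps45 (chr3:96085550-96105066), both on the minus strand, span 85239 and 19517 bases of the genome, so each crosses at least 1 gap in its alignment. Whether they fall in exons or UTRs was not looked up here.
Wipi1: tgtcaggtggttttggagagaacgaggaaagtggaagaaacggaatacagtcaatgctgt
Atg16l2: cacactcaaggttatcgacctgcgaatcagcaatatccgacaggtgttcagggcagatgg
Ulk1: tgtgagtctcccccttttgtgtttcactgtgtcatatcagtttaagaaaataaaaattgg
Atg7: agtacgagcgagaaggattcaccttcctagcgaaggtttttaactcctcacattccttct
Gabarapl1: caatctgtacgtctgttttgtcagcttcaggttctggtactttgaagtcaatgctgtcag
Atg10: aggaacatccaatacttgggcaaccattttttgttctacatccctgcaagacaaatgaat
Vps45: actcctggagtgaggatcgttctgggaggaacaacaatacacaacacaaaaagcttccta
Vps8: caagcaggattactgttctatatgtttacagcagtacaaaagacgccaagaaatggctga

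The kinases that start autophagy were all higher in granulocytes, and kept that direction under every alternative tried. Ulk1, the main initiating kinase, stood at 5.46 in granulocytes and 3.20 in monocytes, a 4.76-fold difference, and its other probe gave 2.40 on the log2 scale. Rb1cc1, the scaffold of the complex also called FIP200, stood at 2.68 in granulocytes and 0.76 in monocytes (3.77-fold). All 6 of its probes passed 2-fold, from 1.12 to 2.28. Ulk2, a close relative of Ulk1, stood at -0.37 in granulocytes and -1.84 in monocytes (2.77-fold), with its 3 measured probes between 1.21 and 1.47. Ulk3, a related kinase, stood at 2.73 in granulocytes and 0.73 in monocytes (4.01-fold, by a single probe). Ulk4 was not well above background on either array, at -7.27 in granulocytes and -7.43 in monocytes, and was not counted.

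Downstream of the kinases, Becn1, which encodes the beclin subunit of the lipid kinase complex, stood at 3.55 in granulocytes and 2.51 in monocytes (2.05-fold), and lay within 2-fold under several scalings (0.65 with quantile normalisation and 0.17 without scaling). The WIPI genes, whose products bind the lipid that this complex makes, went apart. Wipi1 had the largest difference of all 55 genes, with 3.53 in granulocytes and 0.63 in monocytes, a 7.47-fold difference. Its other probe gave 2.82, and the lowest value under any alternative was 2.03, still past 4-fold. Wipi2 stood at 0.21 in granulocytes and -0.02 in monocytes. Its 4 probes ranged from 0.23 to 1.43, and the representative one turned to -0.64 without scaling and -0.29 with spike-in controls. Atg9b, one of the genes for the membrane protein Atg9, was not well above background on either array (-5.48 in granulocytes and -6.37 in monocytes) and was not counted. Vps37d and Vps72 were counted with low signal, Vps37d at -3.54 in granulocytes and -4.60 in monocytes and Vps72 at -2.20 in granulocytes and -2.37 in monocytes.

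The 11 genes of the conjugation systems spread from -1.35 to 2.48, with 4 (36.4%) past 2-fold toward granulocytes and 1 (9.09%) toward monocytes. The shares of all named genes were 29.1% and 20.9%. Atg7, the E1-like enzyme shared by both systems, stood at 2.24 in granulocytes and 0.03 in monocytes (4.63-fold, with 2.99 by its other probe). Atg3, the E2-like enzyme that passes Atg8 proteins to lipid, stood at 5.48 in granulocytes and 3.57 in monocytes (3.78-fold). Another Atg3 probe is spotted 10 times on each array, and it averaged -1.13 ± 0.07 in granulocytes and -3.47 ± 0.09 in monocytes (SD over spots, n = 10 spots of 1 array each), a difference of 2.34. The spread between spots is technical and says nothing of the spread between samples.

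Atg16l2, a relative of the scaffold gene Atg16l1, stood at 3.33 in granulocytes and 0.85 in monocytes (5.58-fold, by a single probe). Atg16l1 itself stood at 3.77 in granulocytes and 2.85 in monocytes, a difference of 0.92. Atg12, the ubiquitin-like protein of the first system, stood at 4.01 in granulocytes and 2.91 in monocytes, and its 3 probes lay between 1.1 and 1.19. It lay within 2-fold under several alternatives (0.67 with quantile normalisation, 0.58 with spike-in controls and 0.22 without scaling). Atg5, to which Atg12 is joined, differed by 0.70 and turned to -0.18 without scaling. The 4 proteases that process Atg8 proteins differed by less than 2-fold: 0.88 for Atg4b, 0.61 for Atg4d, 0.35 for Atg4a and 0.27 for Atg4c, of which the last 3 were negative without scaling (-0.26, -0.52 and -0.60) and the last 2 also with spike-in controls. Atg4c stood at 1.08 in granulocytes and 0.81 in monocytes by its representative probe, and 1 of its 3 probes was negative (-0.60).

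Atg10, the E2-like enzyme that joins Atg12 to Atg5, ran the other way from Atg3, the E2-like enzyme of the Atg8 system. It stood at -1.72 in granulocytes and -0.38 in monocytes, 2.54-fold higher in monocytes, with -1.61 by its other probe. Its direction held under every alternative, from -2.22 to -0.85.

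**Figure D2:**
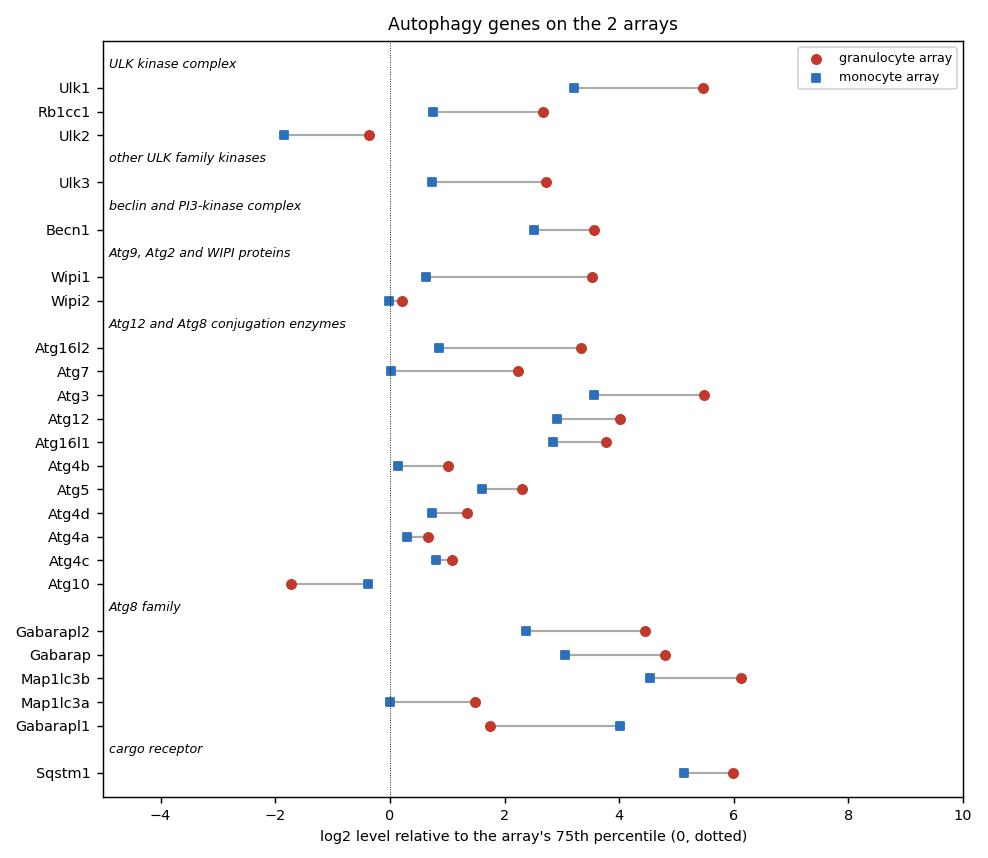
Log2 level of each of the 24 autophagy genes relative to the 75th percentile of its array (x axis), grouped by role down the page, with the granulocyte array as red circles and the monocyte array as blue squares joined by a line. Only Gabarapl1 and Atg10 lie further right on the monocyte array.

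Of the 5 Atg8 family genes, 4 (80%) passed 2-fold toward granulocytes and 1 (20%) toward monocytes, against 29.1% and 20.9% of all named genes. All 5 kept their direction under every alternative, though Map1lc3a, Map1lc3b and Gabarap lay within 2-fold without scaling. Map1lc3b, the LC3 gene most used as a marker of autophagosomes, stood at 6.13 in granulocytes and 4.53 in monocytes (3.03-fold), and its other probe gave 2.35. Map1lc3a stood at 1.49 in granulocytes and 0.01 in monocytes (2.80-fold). Gabarap stood at 4.79 in granulocytes and 3.06 in monocytes (3.32-fold), with 1.88 by its other probe. Gabarapl2, also called GATE-16, stood at 4.46 in granulocytes and 2.38 in monocytes (4.22-fold), while a second, dimmer probe gave 0.47.

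Gabarapl1 was the exception in the family. It stood at 1.74 in granulocytes and 4.01 in monocytes, 4.81-fold higher in monocytes, and its other probe gave -1.39. It was the only 1 of the 55 genes past 4-fold toward monocytes, and its difference ranged from -3.14 to -1.83 over the alternatives. Sqstm1, the gene of the cargo receptor p62 that binds both ubiquitin and Atg8 proteins, stood at 5.99 in granulocytes and 5.13 in monocytes, a difference of 0.86 that was -0.02 without scaling.

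Differences among the Vps genes varied within complexes as well as between them. The 7 genes of ESCRT-I and ESCRT-II, which sort ubiquitinated membrane proteins into vesicles inside endosomes, had a median of 1.07. The median of the 7 was 0.59 with quantile normalisation, 0.55 with spike-in controls and 0.19 without scaling. That of all named genes was 0.45, and under these alternatives 0.21, -0.08 and -0.42. Vps37c stood at 2.14 in granulocytes and 0.01 in monocytes (4.39-fold), the largest difference of any Vps gene. Its relatives, which take the same place in ESCRT-I, differed by 1.31 for Vps37a (0.85 in granulocytes and -0.46 in monocytes), 1.07 for the dim Vps37d and 0.55 for Vps37b. Vps28, another ESCRT-I subunit, stood at 6.54 in granulocytes and 5.34 in monocytes, a 2.30-fold difference, with 1.29 by its other probe. Without scaling Vps28, Vps37a and Vps37d lay within 2-fold (0.33, 0.44 and 0.19), as they did with spike-in controls (0.69, 0.80 and 0.55). The ESCRT-II gene Vps36 stood at 3.59 in granulocytes and 3.13 in monocytes. It and its partner Vps25 (0.47) were negative with spike-in controls and, like Vps37b, without scaling.

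Vps4a and Vps4b encode the ATPases that take ESCRT-III apart, and they differed unequally. Vps4b stood at 4.80 in granulocytes and 3.28 in monocytes (2.87-fold), and Vps4a at -0.36 in granulocytes and -0.61 in monocytes (1.19-fold). Chmp3, an ESCRT-III subunit that the array calls Vps24, gave 0.46, and it and Vps4a were negative without scaling and with spike-in controls.

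The retromer returns receptors from endosomes to the Golgi. Its core gene Vps35 stood at 4.23 in granulocytes and 3.83 in monocytes, Vps29 at 4.18 in granulocytes and 3.84 in monocytes, and Vps26a at 1.89 in granulocytes and 1.82 in monocytes. All 3 differences lay below the median of all genes and were negative without scaling, with spike-in controls and with quantile normalisation. Vps26b, the alternative to Vps26a, stood at 2.65 in granulocytes and 1.02 in monocytes (3.10-fold), with 0.82 and 1.09 by its other probes. The remaining Vps29 probes ranged from -0.35 to 0.56.

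HOPS and CORVET tether endosomes, lysosomes and autophagosomes before fusion. None of the 8 genes grouped with them here passed 2-fold, against 29.1% of all named genes toward granulocytes and 20.9% toward monocytes. Their median was 0.08, and 7 of the 8 lay below the median of all named genes. Vps33b, grouped here only as a relative of the core gene Vps33a, had the highest difference, with 2.62 in granulocytes and 1.79 in monocytes. It was the only 1 of the 8 above that median. The core gene Vps11 stood at 2.70 in granulocytes and 2.35 in monocytes, with its 3 probes from 0.30 to 0.39. Of the other core genes, Vps18 stood at 2.19 in granulocytes and 1.91 in monocytes with probes from -0.22 to 0.62, and Vps16 stood at 2.48 in granulocytes and 3.20 in monocytes, 1.65-fold higher in monocytes. The core gene Vps33a gave -0.11 by 1 probe and -1.01 by the other. The HOPS genes Vps39 (0.13) and Vps41 (0.03) were close to 0, and Vps8, of CORVET, stood at -2.42 in granulocytes and -1.66 in monocytes. Without scaling all 8 were negative with a median of -0.79, beside -0.42 for all named genes, and Vps16 and Vps8 then passed 2-fold toward monocytes. Both also passed with spike-in controls (-1.24 and -1.27), Vps16 with quantile normalisation (-1.12), and Vps33a when its brightest probe on either array was taken (-1.01). After normexp background correction the difference of the dim Vps8 shrank to -0.28. The median was -0.43 with spike-in controls, -0.06 with quantile normalisation and -0.10 in the authors' deposited table. For all named genes it was then -0.08, 0.21 and 0.26.

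Of the GARP tether, which receives vesicles at the Golgi, Vps54 stood at 3.89 in granulocytes and 2.11 in monocytes (3.43-fold), with all 4 probes at 1.67 or more. Vps52 differed by 0.72. Vps53 stood at 1.81 in granulocytes and 1.73 in monocytes by its brighter probe, while a dimmer one gave 1.03. Without scaling Vps52 and Vps53 were negative (-0.16 and -0.79), and Vps53 was negative with spike-in controls, with quantile normalisation and in the authors' deposited table too.

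The VPS13 proteins carry lipids between membranes. Vps13d stood at 1.67 in granulocytes and -0.18 in monocytes (3.59-fold). Vps13a stood at 1.38 in granulocytes and 0.72 in monocytes, and Vps13b at 2.09 in granulocytes and 1.47 in monocytes, and both differences were negative without scaling. Vps13c stood at 0.58 in granulocytes and 0.86 in monocytes, and all 5 of its probes were negative (-0.75 to -0.08). The representative Vps13a probe was the only positive 1 of 5. It lies on the plus strand in the files, as does a probe at -0.01, whereas the other 3 lie on the minus strand and ran from -0.58 to -0.39, so the direction for Vps13a is uncertain, and the mean of its probes was -0.17. Vps45, a Sec1/Munc18 protein that guides membrane fusion at endosomes, stood at -0.38 in granulocytes and 0.82 in monocytes, 2.30-fold higher in monocytes by a single probe and between -2.07 and -1.10 over the alternatives. Vps72, which shares the name but encodes a chromatin protein, gave 0.17, but -0.70 without scaling and -0.35 with spike-in controls.

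**Figure D3:**
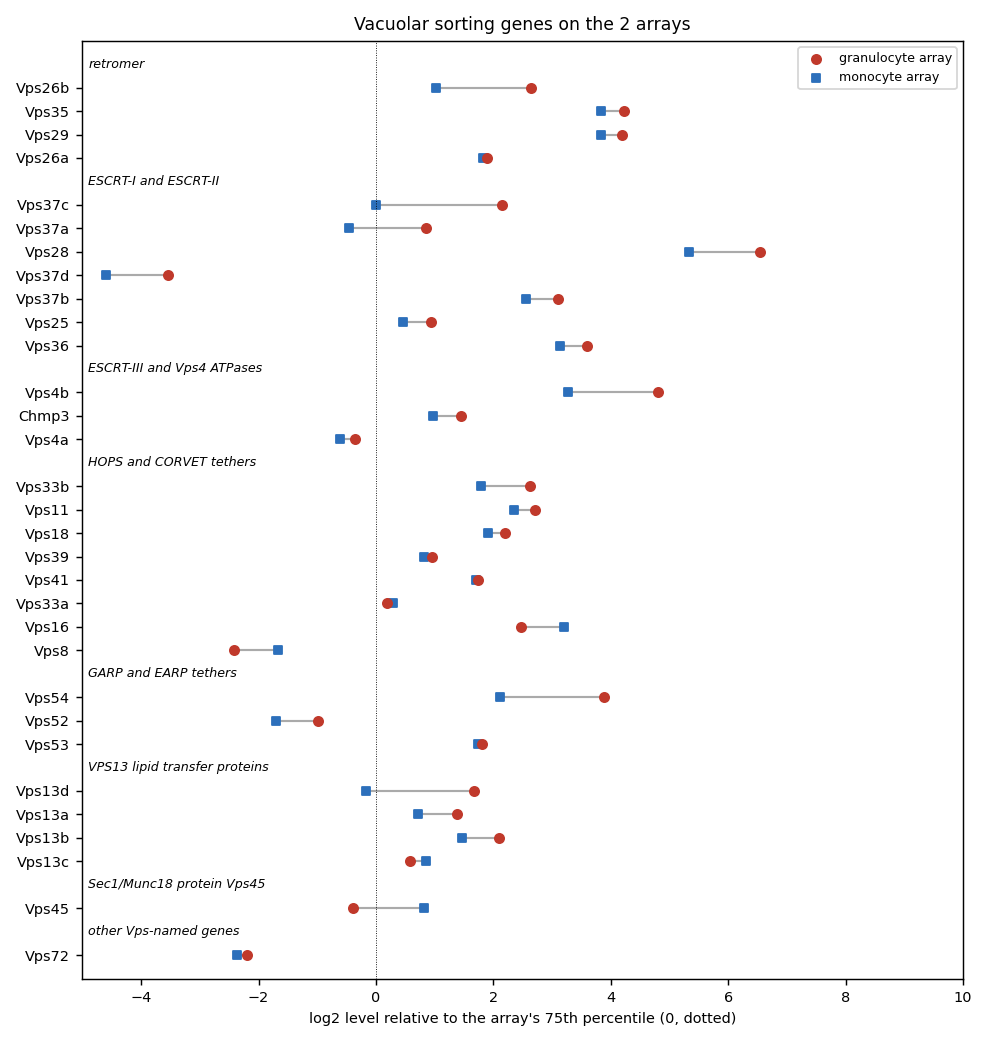
Log2 level of each of the 31 Vps genes relative to the 75th percentile of its array (x axis), grouped by complex down the page, with the granulocyte array as red circles and the monocyte array as blue squares. The ESCRT genes lie further right on the granulocyte array, and Vps16, Vps8, Vps13c, Vps33a and Vps45 on the monocyte array.

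Probes of the same gene gave a measure of how far a value depends on the probe. Among the 36 genes with at least 2 measured probes, the range between probes had a median of 0.50 and reached 1.60, for Gabarapl2, and it was 1 or more for 4 genes. Over all 116 measured probes, 95 were above 0 and 21 below. The remaining 9 were not well above background on either array. Every measured probe passed 2-fold toward granulocytes for 19 genes, 15 of them with at least 2 probes, and toward monocytes for 3 genes. Probes differed in sign for Atg4c, Vps13a, Vps18 and Vps29.

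**Figure D4:**
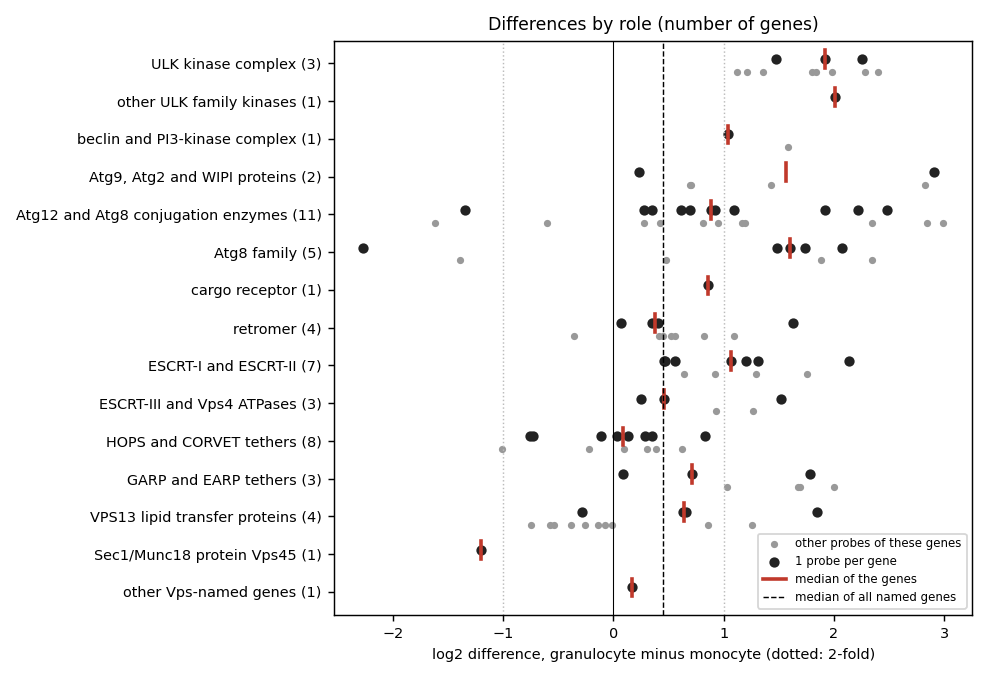
Log2 difference, granulocyte minus monocyte (x axis), by role (y axis, with the number of genes). Large points are the representative probes, small grey points the other probes of the same genes, red bars the medians, dotted lines 2-fold and the dashed line the median of all named genes (0.45), which the ULK complex (1.92) and Atg8 family (1.60) exceed and the HOPS and CORVET genes (0.08) do not.

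Genes that work with these proteins but fall outside the naming rule were taken from a list of 79 partner genes, all of them above background. The list was drawn up with earlier results of these data known. Of these, 30 (38%) passed 2-fold toward granulocytes and 7 (8.86%) toward monocytes, beside the 29.1% and 20.9% of all named genes, with a median of 0.81. The counts of the 79 were 9 and 17 without scaling, against 9.88% and 35.3% of all genes. With spike-in controls they were 14 and 12, against 15.0% and 28.7% of all genes. Cargo receptors had the largest share past 2-fold toward granulocytes of the 8 groups, with 8 of 9 (88.9%) and a median of 1.25. This count depended on scaling. Without scaling every difference is lower, and only Optn, Bnip3 and Wdfy3 of these would still pass. Optn, the gene of the receptor optineurin, stood at 1.96 in granulocytes and -1.85 in monocytes, a 14.0-fold difference by a single probe. Fundc1, a mitochondrial receptor, was the exception at -0.19.

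Genes of the fusion step had a median of 1.15, with 7 of 13 (53.8%) past 2-fold toward granulocytes. Toward monocytes 1 (7.69%) passed, the lysosomal membrane gene Lamp1 (-1.23). The shares of all named genes were 29.1% and 20.9%. Plekhm1, an adaptor that links lysosomes to HOPS, stood at 3.55 in granulocytes and 1.34 in monocytes (4.63-fold), and Stx17, the SNARE of the autophagosome, at 1.01 in granulocytes and -1.16 in monocytes (4.49-fold).

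Of the 10 partners of the retromer, 2 (20%) passed 2-fold each way, against 29.1% of all named genes toward granulocytes and 20.9% toward monocytes, and their median was 0.04. Among the sorting nexins of the retromer coat, Snx5 stood at 1.96 in granulocytes and 4.56 in monocytes (6.10-fold higher in monocytes) and Snx2 at 2.65 in granulocytes and 4.15 in monocytes (2.84-fold higher in monocytes), while Snx6 gave 1.59. The receptors that carry lysosomal enzymes also went both ways. Igf2r, the large mannose 6-phosphate receptor, stood at 3.32 in granulocytes and 0.66 in monocytes (6.32-fold), and Sorl1 at 4.12 in granulocytes and 1.32 in monocytes (6.95-fold). M6pr, the small mannose 6-phosphate receptor, stood at 3.50 in granulocytes and 4.99 in monocytes, 2.82-fold higher in monocytes, and the adaptor gene Gga2 at -2.14 in granulocytes and 0.43 in monocytes (5.94-fold higher in monocytes).

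Partners of beclin had a median of 0.11, with 0 of 7 past 2-fold toward granulocytes and 2 (28.6%) toward monocytes. The shares of all named genes were 29.1% and 20.9%. The kinase gene Pik3c3 (0.11) and its scaffold gene Pik3r4 (0.30) lay within 2-fold, whereas Atg14, which directs the complex to autophagosomes, stood at -1.23 in granulocytes and 0.00 in monocytes, 2.35-fold higher in monocytes, and Rubcn, an inhibitor of the complex, gave -1.15. The group of initiation and membrane genes had a median of 1.06, with 3 of 6 (50%) past 2-fold toward granulocytes, against 29.1% of all named genes. Of the 8 genes of the TFEB family and mTORC1, which raise and restrain autophagy, 2 (25%) passed 2-fold toward granulocytes, Mlst8 (2.10) and Tfe3 (1.5), against 29.1% of all named genes, with a median of 0.11, and Tfeb gave 0.94. Of the 18 other ESCRT genes, 5 (27.8%) passed 2-fold toward granulocytes, close to the 29.1% of all named genes, and 0 toward monocytes, and their median was 0.79.

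**Figure D5:**
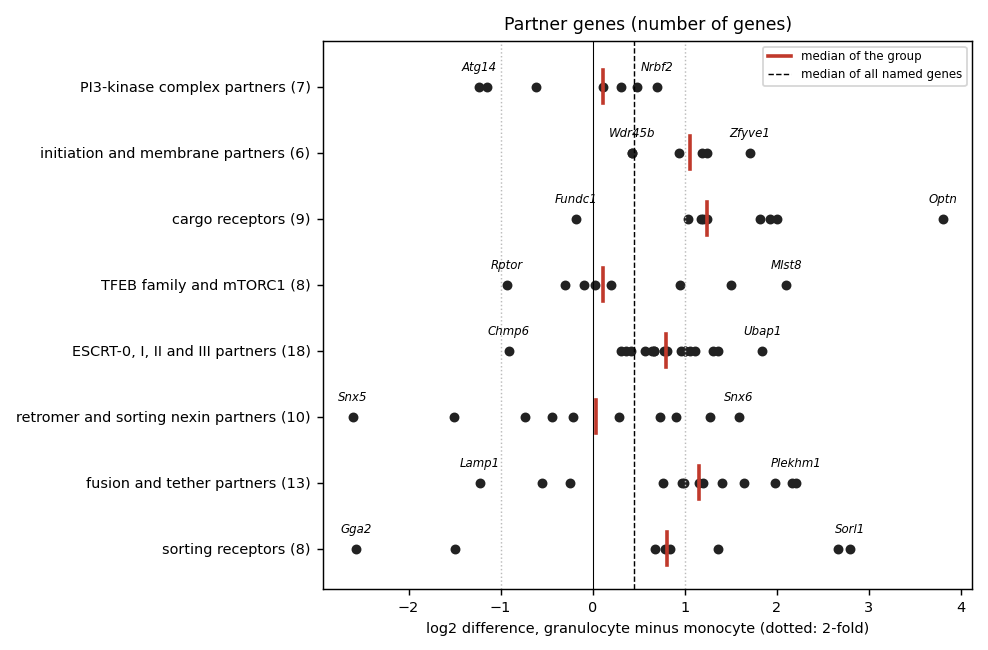
Log2 difference, granulocyte minus monocyte (x axis), of the 79 partner genes by group (y axis, with the number of genes), with the lowest and highest gene of each group named. Red bars are group medians, from 0.04 for the retromer and sorting nexin partners to 1.25 for the cargo receptors, and the dashed line is the median of all named genes (0.45).

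TFEB and its relatives are known to bind a palindrome with the core CACGTG at genes of lysosomes and autophagy. Promoter windows from RefSeq (build GRCm38.p6, 250 bases before to 50 after a start) were at hand for 40 of the 55 genes. The letters CACGTG, searched on both strands, lay in the windows of 6 of these 40 (15%) and in those of 8.09% of all genes in the table. Those 27025 genes were taken whether or not above background, whereas the 40 were all above it, so the sets are unlike. The longer TCACGTGA, which contains CACGTG, lay in 4 of 40 (10%) and in 1.12% of all genes in the table. These 4 were Atg3, Vps16, Vps26a and Vps33a, with differences of 1.92, -0.73, 0.07 and -0.11, so that 1 of the 4 passed 2-fold toward granulocytes, against 16 of the 40. They are shown because they hold the same letters while Atg3 and Vps16 went opposite ways. Vps26a and Vps33a differed little by their representative probes. Capitals mark TCACGTGA. The stretches lie at chr16:45158731-45158790 on the plus strand for Atg3, chr2:130424275-130424334 on the plus strand for Vps16, and chr5:123573011-123573070 on the minus strand for Vps33a. For Vps26a, which has windows at more than 1 start, they lie at chr10:62486717-62486776 and chr10:62486955-62487014 on the minus strand.
Atg3: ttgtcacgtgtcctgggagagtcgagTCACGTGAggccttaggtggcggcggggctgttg
Vps16: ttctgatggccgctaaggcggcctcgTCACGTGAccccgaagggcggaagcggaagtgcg
Vps33a: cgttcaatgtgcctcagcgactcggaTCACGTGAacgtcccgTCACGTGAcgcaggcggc
Vps26a, first stretch: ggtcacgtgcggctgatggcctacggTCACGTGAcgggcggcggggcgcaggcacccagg
Vps26a, second stretch: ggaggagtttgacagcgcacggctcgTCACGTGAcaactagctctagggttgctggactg
A match describes these letters only, and no binding was measured here.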

How the data were processed

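Spot signals came, per the file headers, from Agilent Feature Extraction 10.5.1.1, which gave each spot an intensity on a linear scale, background-subtracted and corrected for spatial trends, and not scaled between arrays. The authors' deposited value table is on a log2 scale. It equalled the log2 processed intensity plus a constant per array (-0.24 for granulocytes, -0.92 for monocytes), with column medians of 4.80 and 4.80, and nothing states how the constants were set.

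From the intensities, spots marked as outliers were dropped (143 for granulocytes, 103 for monocytes), 0 gene spots were saturated, and log2 intensity minus each array's 75th percentile (339.4 for granulocytes and 620.9 for monocytes) was averaged over the spots of a probe. Of 41089 probes, 33056 were named through RefSeq accessions or symbols (GRCm38.p6). A gene was represented by its probe well above background on most arrays, then the brightest. With 1 array per group no test was possible, and genes were called by size, at least 2-fold. The members, roles and partner genes were chosen with earlier results of these data known. Every member may be named; values on both arrays are given for those past 2-fold, for the extremes and the brightest of each role and for most others, with the 5 partner genes each way and further partner genes chosen after their values were seen. The steps were tested on simulated data. Alternatives covered scaling, background correction (normexp with an offset of 50, limma 3.58.1), the value table, filters, probe choice, gene naming and the size of a call.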

Additional observations from a re-analysis of the deposited data

How the results depend on the processing

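No paired analysis was possible because each cell type has a single array, and leaving a replicate out was not possible either. The 25 genes past 2-fold (22 in granulocytes, 3 in monocytes) kept their direction in all 275 values under the 11 alternatives. Much of this was fixed in advance. Filters and gene naming left the values of all 55 genes unchanged. Changes of scaling other than quantile normalisation, and the authors' value table, moved all by the same amount, less than 2-fold. None of these could reverse a gene past 2-fold. Without scaling, the genes at least 2-fold higher in granulocytes numbered 9 and those in monocytes 6, and the median of the 55 genes was -0.18. The partner genes then numbered 9 in granulocytes and 17 in monocytes. The shares of all genes were 9.88% and 35.3%. With spike-in controls (9 used), monocytes had 5 of the genes, the median was 0.18, and the partner genes numbered 14 in granulocytes and 12 in monocytes. Of all genes, 15.0% passed 2-fold toward granulocytes and 28.7% toward monocytes in that setting. Quantile normalisation gave a median of 0.48 and 19 partner genes in granulocytes (21.5% of all genes passed), and the authors' value table a median of 0.51. By construction, 4-fold gave 7 genes in granulocytes and 1 in monocytes (6 and 2 partner genes), and 1.5-fold gave 5 genes in monocytes (49 partner genes in granulocytes and 11 in monocytes). Relative to the median of all genes, the median of the 55 was higher by 0.24, by 0.25 without scaling and by 0.06 after normexp correction. The cause of this last value was not tested. With 1 array per group none of these values speaks of the spread between mice.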
